A study of Mus musculus with 16 samples.

Results

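C2C12 is an established line of mouse myoblasts, the precursor cells of skeletal muscle, which stop dividing and fuse into multinucleate myotubes when serum is lowered. The libraries described here are the 8 of the 16 in the series that were made after 3 days of differentiation, chosen by the stage and genotype in their titles. Messenger RNA was measured in 4 libraries of wild-type C2C12 cells (control populations 1 and 2) and in 4 libraries of triple-knockout cells (tKO clones 1 and 2), in which the genes of miR-1a-1 and miR-1a-2 and that of miR-206 were all knocked out. All the cells, controls included, were the C2C12 PAX7 NEG line of the labels, grown in medium rich in fetal bovine serum and differentiated in medium poor in horse serum. Each population or clone gave a BR1 and a BR2 library, called culture 1 and culture 2 below. The labels do not say what separated them, so every p-value measures only the spread between these libraries, part of which may be technical. Each tKO line is 1 clone, while the controls are populations. The 8 growth medium libraries, with the same lines and numbers, serve as the comparison before differentiation. The study's title asks about muscle and mitochondrial function and about myogenesis.

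MicroRNAs of the miR-1/206 family are made in skeletal muscle as myoblasts differentiate, and repress messenger RNAs that pair with the seed, the bases near their 5′ end. miR-1a-1 and miR-1a-2 make the same mature miR-1a, which shares its seed with miR-206. Loss of a microRNA therefore tends to raise transcripts with a matching 3′ UTR site, while other transcripts can follow indirectly. miR-133b is made from the same host transcript as miR-206 and is a separate family with its own seed.

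Mature sequences (RefSeq, GRCm38.p6, chromosome 1, plus strand) are shown because the site classes below derive from them, and capitals mark the seed, bases 2 to 8. miR-206 lies at chr1:20679055-20679076 and miR-133b at chr1:20682834-20682855.
miR-206-3p: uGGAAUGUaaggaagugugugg
miR-133b-3p: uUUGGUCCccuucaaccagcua

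An 8-base match to miR-206 is ACATTCCA on the transcript's strand, and the 7-base matches are ACATTCC and CATTCCA, each counted where the longer match is absent. The 8 genes with the largest rise among those that passed the test below and hold the 8-base match are shown with 30 bases around it, the match in capitals (GENCODE M21, GRCm38). Every one of these matches lies in the last exon of the transcript with the longest 3′ UTR, and Sri holds a pair.  Tmsb4x (thymosin beta-4) and Tpm4 (a non-muscle tropomyosin) act on actin, Col4a6 is a basement membrane collagen chain, and E2f5 is a cell cycle transcription factor.
Tmsb4x, X:167207465-167207472, minus strand: ccaatatgcactgtACATTCCAcgagcatt
Tpm4, 8:72152891-72152898, plus strand: catctcacactgaaACATTCCAcattcccc
Mmd, 11:90277473-90277480, plus strand: gcagcaaacggtcaACATTCCAcgaacaaa
Col4a6, X:141166506-141166513, minus strand: tccatctggtgctaACATTCCAtttagata
E2f5, 3:14606191-14606198, plus strand: tttgttgacttctgACATTCCActttccta
Sri, 5:8067589-8067596, plus strand: tctgaatatattcaACATTCCAactggaac
Sri, 5:8069158-8069165, plus strand: aactggtgaaataaACATTCCAtaagcatc
Srsf9, 5:115332785-115332792, plus strand: tgtgctcagagtctACATTCCAgattgatt
Ust, 10:8205119-8205126, minus strand: tataacctttcagcACATTCCAaggtttta

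Values are FPKM, a count of fragments divided by the gene's length and the library's depth. The day 3 libraries held 31834264 to 56585952 fragments in control and 27714736 to 32102386 in tKO cells, so 3 fragments on a gene of 1 kilobase, used as the detection floor, are 0.053 to 0.108 FPKM. These floors cover counting error only. In culture 1 libraries 16325 to 16569 genes were above 0 and in culture 2 libraries 17572 to 18575, in both genotypes. The median within-group SD was 0.168 in control and 0.278 in tKO libraries on the log2(FPKM + 1) scale. The library of tKO clone 1, culture 1, stood farthest from the rest on the second principal component (-40.4, against -21.01 to 15.8 in the other 7). The labelled cell type, myotubes, was checked with 18 myotube genes, whose summed level was 1549 to 2179 FPKM in control and 730.3 to 2066 FPKM in tKO libraries. Of markers of other cells, the 8 endothelial ones summed to at most 0.626 FPKM, the 7 immune ones in the table to at most 9.45 and the 10 adipocyte ones to at most 10.2. In bulk RNA, fewer cells of a type and less RNA per cell cannot be told apart.

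At day 3, 112 of 11732 tested genes passed the test of tKO against control (0.955%; limma, Benjamini-Hochberg adjusted p under 0.05 over all tested genes). Of these, 50 were higher (0.426%) and 62 lower in tKO cells (0.528%). These 2 shares belong beside every count of called list members below. The higher genes moved by less, with a median difference of 0.93 on the log2(FPKM + 1) scale and 21 genes at 1 or more, against -1.40 and 47 genes at -1 or beyond for the lower ones. All differences below are tKO minus control on this scale, where low genes change by less than their FPKM ratio, and SDs are over n = 4 libraries. The 112 genes had 4 tKO values all above or all below the 4 control values, as did 8.65% of tested genes (502 higher, 513 lower). Without overlap the direction is bound to be the same in both cultures, so that sameness adds nothing. The count depends on single libraries. It was 51 without control line 1, culture 2, 57 without control line 2, culture 1, 63 without control line 1, culture 1, 66 without control line 2, culture 2, and 241 without tKO clone 1, culture 1. With the average of each line as the unit, 8 of the higher and 26 of the lower genes passed. Among the 15 largest rises, Aldh1a7, Brinp3, Adamts1, Tmsb4x, Ero1l, Clcn5, Sdsl and Plag1 did not (limma adjusted p = 0.0605 to 0.190). Among the 15 largest falls, Pdgfrl and Magea8 did not (limma adjusted p = 0.110 and 0.0989). The fits below that left out 1 library kept both lines of each genotype.

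The largest rise was in Aldh1a1, an aldehyde dehydrogenase that makes retinoic acid. Aldh1a1 (chromosome 19, 20601961 to 20643462) had 2.35 and 2.79 FPKM in control line 1, cultures 1 and 2, and 1.85 and 1.90 in line 2. In tKO cells it had 47.9 and 66.7 FPKM in clone 1 and 64.2 and 84.5 in clone 2. Every tKO library was far above every control, and the difference was 4.36 (SE 0.18, limma adjusted p = 2.4e-06). The neighbouring paralog Aldh1a7 rose by 2.74, and since reads can be shared between near-identical genes its value is uncertain. Of the 13 tested genes of the retinoic acid pathway these were the 2 that rose, none fell, and the pathway's median was 0.039. Among all tested genes 0.426% rose and 0.528% fell.

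Tmsb4x, which binds actin monomers (chromosome X, 167207093 to 167209315), rose from 267 ± 9.82 to 937 ± 308 FPKM (difference 1.75, SE 0.21, limma adjusted p = 0.00333). Its control libraries had 269, 257, 280 and 261 FPKM, in the order line 1 cultures 1 and 2, then line 2. Clone 1 had 908 and 603 and clone 2 had 1349 and 886. The groups lay far apart, and culture 1 was the higher of the pair in each clone. Tpm4 rose from 68.4 ± 14.2 to 188 ± 22.8 FPKM (1.46, SE 0.16, limma adjusted p = 0.00158). Tagln2 (transgelin 2, an actin-binding protein) rose from 63.3 ± 5.53 to 121 ± 11.7 FPKM (0.92, limma adjusted p = 0.00375). Lasp1 and Arpc1a, an actin-binding LIM protein and a subunit of the actin-branching Arp2/3 complex, rose by 1.06 and 0.58 (limma adjusted p = 0.00557 and 0.0276); they were chosen after their values were seen. Arpc1a did not pass in 6 of the 8 fits that left out 1 library, whose adjusted p reached 0.104; it passed without clone 1, culture 1, or clone 2, culture 1. Of the 25 tested smooth muscle and non-muscle contractile genes, Tpm4 and Tagln2 rose and none fell, beside 0.426% and 0.528% of all tested genes. In this list 22 differences were positive (median 0.26, against 0.0057 over all tested genes). By culture, the median was 0.088 with 16 positive in culture 1 and 0.38 with 23 positive in culture 2. The list's mean, log2(FPKM + 1), was 5.54 in clone 1, culture 1, below the controls (5.55 to 5.83), and 6.10 to 6.27 in the other tKO libraries. The most abundant of them, Acta2, had 894 ± 212 and 1286 ± 260 FPKM, with overlap, and did not pass (0.53, limma adjusted p = 0.324).

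**Figure D1:**
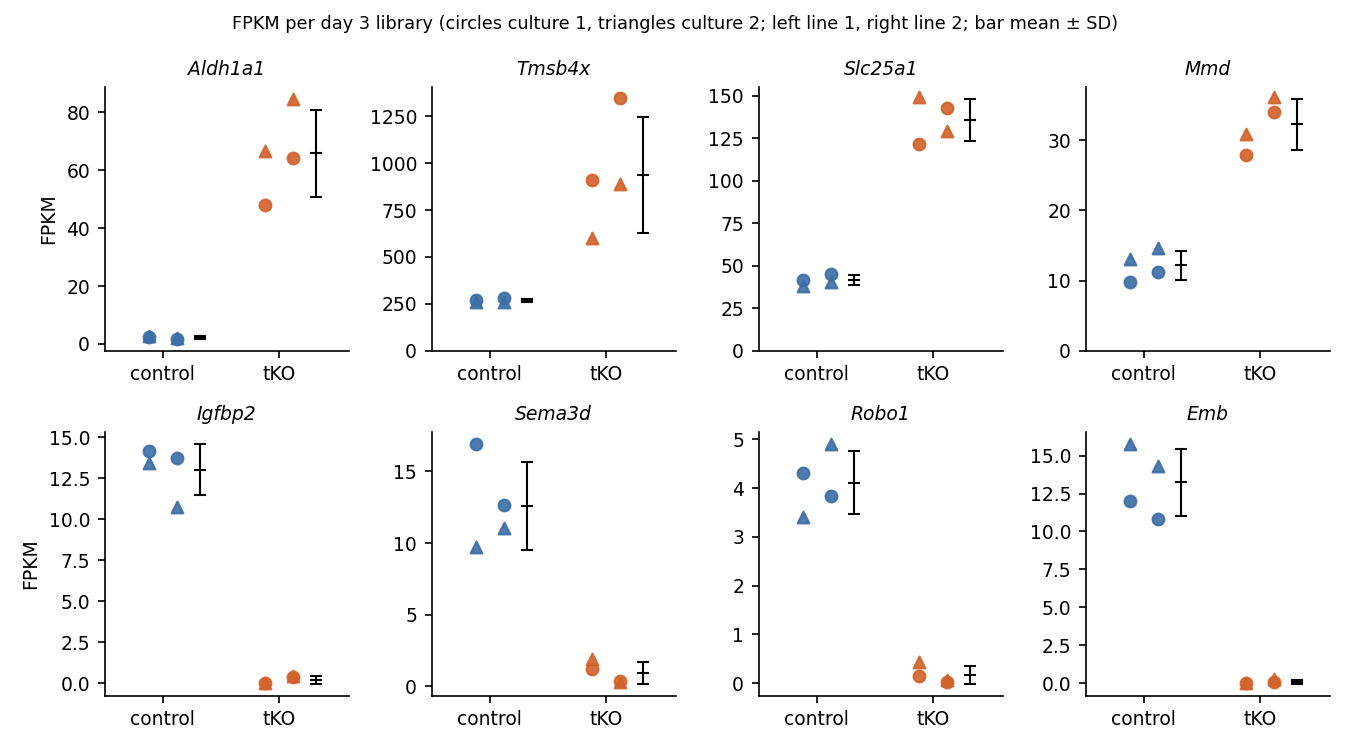
FPKM of 8 genes in each day 3 library, on linear axes from 0. Circles are culture 1 and triangles culture 2, the left column of each group is line or clone 1 and the right is 2, and bars are the mean ± SD of 4 libraries. All 4 tKO libraries lie above the controls for Aldh1a1, Tmsb4x, Slc25a1 and Mmd, and below them for Igfbp2, Sema3d, Robo1 and Emb.

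Slc25a1, the mitochondrial citrate carrier (chromosome 16, 17925211 to 17928219), had 41.6, 38.2, 45.1 and 40.5 FPKM in the control libraries and 122, 149, 143 and 130 in the tKO libraries. The 4 tKO values were close together and none came near a control. The difference was 1.69 (SE 0.11, limma adjusted p = 4.86e-05), and Slc25a1 passed in all 8 fits that left out 1 library. G6pdx, the first enzyme of the pentose phosphate pathway, rose from 17.3 ± 2.26 to 38.2 ± 9.93 FPKM (1.07, limma adjusted p = 0.0197), and H6pd, its counterpart in the endoplasmic reticulum, from 9.80 ± 0.599 to 18.3 ± 2.16 (0.83, limma adjusted p = 0.0088). Adpgk, an ADP-dependent glucokinase, rose from 7.77 ± 1.02 to 13.6 ± 1.76 FPKM (0.73, limma adjusted p = 0.0397). Adpgk passed in 1 of the 8 fits that left out 1 library (without clone 1, culture 1; up to 0.150 in the others), and G6pdx did not pass without control line 1, cultures 1 or 2, or control line 2, culture 1 (up to 0.0883). H6pd and Adpgk hold an 8-base match and the other 2 a 7-base match. H6pd was chosen after its values were seen. Ero1l, an oxidase of the endoplasmic reticulum, rose by 1.51 (limma adjusted p = 0.0156), with clone 1 at 149 and 106 FPKM, clone 2 at 56.8 and 88.8 and controls at 28.4 to 35.3. It did not pass without any 1 of the control libraries or without clone 1, culture 2 (up to 0.0657).

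Mmd, a membrane protein first found in maturing macrophages, rose from 12.2 ± 2.11 to 32.3 ± 3.61 FPKM (1.35, SE 0.14, limma adjusted p = 0.00134). Notch3, a receptor of the Notch pathway (chromosome 17, 32120820 to 32166880), had 17.2, 21.1, 18.5 and 23.4 FPKM in control and 42.8, 46.5, 42.1 and 50.6 in tKO libraries (1.15, SE 0.12, limma adjusted p = 0.00137). The tKO libraries were nearly alike and did not overlap the controls. It was the only member called among 22 tested Notch pathway genes, whose median was -0.0086. Col4a6 had 7.42 to 12.1 FPKM in control and 24.7 to 25.9 in tKO libraries (1.33, limma adjusted p = 0.00216). Loxl4, a lysyl oxidase that cross-links matrix, rose by 1.36 (limma adjusted p = 0.000802), and Adamts1, a secreted metalloprotease, by 1.80 (limma adjusted p = 0.029). Adamts1 was the only one called of 19 matrix proteases and inhibitors, and it did not pass without any 1 control library (up to 0.105). Brinp3, Clcn5 (an endosomal chloride and proton exchanger), Sdsl and the zinc finger factor Plag1 rose by 1.95, 1.199, 1.15 and 1.11. Leaving out 1 library ended the call of Clcn5 in 6 of 8 fits (all but those without clone 1, culture 1, or clone 2, culture 2; up to 0.161). It ended that of Brinp3 without control line 1, culture 1 or 2, or control line 2, culture 1 (up to 0.0608), of Plag1 without either control's culture 1 (up to 0.0528) and of Aldh1a7 without control line 1, culture 2 (0.0528).

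The lower genes included several that were near or under the detection floor in tKO cells. Emb (embigin, a membrane glycoprotein; chromosome 13, 117220625 to 117274098) had 12.03, 15.7, 10.8 and 14.3 FPKM in the control libraries. It had 0 and 0.0154 FPKM in clone 1 and 0.0961 and 0.285 in clone 2, which is 0 to 20 fragments. The difference was -3.69 (SE 0.16, limma adjusted p = 2.4e-06). Igfbp2, which binds insulin-like growth factors (chromosome 1, 72824503 to 72852474), had 10.7 to 14.2 FPKM in control libraries, 0 in both clone 1 libraries and 0.359 and 0.442 in clone 2 (-3.56, limma adjusted p = 5.34e-06). The 2 genes thus had the same order, with clone 1 below clone 2. Rab6b, a Golgi Rab, fell from 2.86 ± 0.372 FPKM to at most 0.0498 (-1.91), and Serpine2, a protease inhibitor chosen after its values were seen, from 1.52 ± 0.374 FPKM to at most 2 fragments in any tKO library. Aldh1a1, Emb, Igfbp2 and Rab6b passed in all 8 fits that left out 1 library.

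Sema3d, a secreted semaphorin (chromosome 5, 12383166 to 12588943), had 16.9 and 9.76 FPKM in control line 1, 12.7 and 11.1 in line 2, 1.23 and 1.88 in clone 1 and 0.354 and 0.310 in clone 2. The groups did not overlap, clone 2 was the lower of the clones, and the difference was -2.86 (SE 0.27, limma adjusted p = 0.00067). Robo1, a receptor for Slit guidance proteins, fell from 4.11 ± 0.639 to 0.169 ± 0.182 FPKM (-2.13, limma adjusted p = 0.000157), and Ntn1 (netrin 1) from 17.8 ± 2.46 to 4.70 ± 1.78 FPKM (-1.78, limma adjusted p = 0.00497). These were the 3 that fell of 31 tested guidance ligands and receptors, of which none rose, and the list's median was 0.026. For the lists of this paragraph, the shares over all tested genes were 0.528% lower and 0.426% higher. Of 13 IGF system genes, Igfbp2 and Igf2r fell (-3.56 and -1.54), none rose, and the median was 0.042. Pdgfrl, C1qtnf3 and Osr1 (a zinc finger transcription factor) fell by 3.17, 2.31 and 2.11 (limma adjusted p = 0.00641, 0.000545 and 3.92e-05). Of 36 collagen and matrix genes Dcn (decorin), Col11a1 and Lama4 fell, by 1.65, 1.48 and 1.05, none rose, and the median was -0.084. Dcn did not pass without control line 1, culture 2, or either library of control line 2 (up to 0.0791), nor Col11a1 without either control's culture 2 or clone 1, culture 2 (up to 0.0857).

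Kcnj16 (an inward rectifier potassium channel), Nsg1, Nkain1 and Pawr fell by 2.43, 2.37, 1.96 and 1.87. Nsg1 lost the call in 5 of 8 fits that left out 1 library, the exceptions being those without control line 1, culture 1, clone 1, culture 1, or clone 2, culture 2 (up to 0.1203), and Kcnj16 without control line 1, culture 2 (0.0652). Magea8 fell by 2.29 and its relative Magea5, chosen after its values were seen, by 1.74, and reads can be shared within that family. The cyclin gene Ccnd2 fell from 6.14 ± 1.55 to 1.53 ± 1.04 FPKM (-1.55, limma adjusted p = 0.0288) and was the only one called of 45 cell cycle genes (median -0.17). That list split by clone. Its mean, log2(FPKM + 1), was 3.32 and 3.60 in clone 1, 4.03 and 3.88 in clone 2 and 3.83 to 3.94 in controls. Ccnd2 did not pass without either library of control line 2 or of clone 2, or without control line 1, culture 1 (up to 0.109).

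Of the muscle lists, 4 genes fell in tKO cells: Atp2a1, Ryr1, Trim72 and Pgam2. None of 43 sarcomere genes was called. Atp2a1 (SERCA1, the calcium pump of the sarcoplasmic reticulum; chromosome 7, 126445858 to 126463108) had 51.2 and 70.6 FPKM in control line 1 and 40.6 and 54.5 in line 2. It had 29.6 and 8.39 FPKM in clone 1 and 14.8 and 8.10 in clone 2 (difference -1.93, SE 0.35, limma adjusted p = 0.0322). All tKO libraries were below all controls, and the lowest were those of culture 2, with differences of -1.08 in culture 1 and -2.77 in culture 2. Ryr1, the calcium release channel of the same membrane, fell from 21.5 ± 2.46 to 9.83 ± 3.62 FPKM (-1.11, limma adjusted p = 0.040). Trim72 (MG53), which acts in membrane repair, fell from 5.53 ± 1.06 to 1.39 ± 0.716 FPKM (-1.49, limma adjusted p = 0.0131). Pgam2, the muscle phosphoglycerate mutase, fell from 32.8 ± 7.85 to 15.2 ± 4.02 FPKM (-1.07, limma adjusted p = 0.0441). In the fits without 1 library, Atp2a1 passed only without clone 1, culture 1 (up to 0.136 otherwise), and Ryr1 only without clone 1, culture 1, or clone 2, culture 1 (up to 0.133). Pgam2 passed only without either library of clone 2 (up to 0.150), and Trim72 in all but the fit without control line 1, culture 2 (0.0657). Without any filter on low values Atp2a1, Ryr1 and Pgam2 did not pass (limma adjusted p = 0.0945 to 0.114).

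A further 6 lower genes known from muscle are on none of these lists. They were chosen after their values were seen and because they fell, so they add nothing to the counts of the lists. Mylk2, the skeletal myosin light chain kinase, had 2.08 to 2.47 FPKM in control and 0.370 to 0.855 in tKO libraries (-1.14, limma adjusted p = 0.00452). Mapk12, a p38 kinase of muscle, went from 8.44 ± 0.623 to 3.40 ± 0.675 FPKM (-1.11, limma adjusted p = 0.00497). Sspn (sarcospan), Txlnb, Ppp1r12b (a myosin phosphatase subunit) and Pdlim7 fell by 0.98, 0.93, 0.92 and 0.60 (limma adjusted p = 0.0209, 0.0404, 0.0307 and 0.0378). Mylk2 and Mapk12 passed in all 8 fits that left out 1 library, and the other 4 failed in 5 or 6 of them. Sspn and Txlnb failed in the same ones, without any 1 control library or clone 1, culture 2; Ppp1r12b and Pdlim7 also failed without any 1 control library (highest adjusted p 0.0865, 0.154, 0.121 and 0.150). Of 19 excitation-contraction coupling genes, 14 had negative differences (median -0.32, with -0.26 in culture 1 and -0.46 in culture 2). Among them Atp2a1 and Ryr1 fell and none rose, beside 0.528% and 0.426% of all tested genes. Both genes are also the 2 called of 15 tested myotube markers, whose median was -0.24, with 0.35 in culture 1 and -0.99 in culture 2. The part of the myotube markers in the single differences was not tested. Of 26 fuel genes of muscle Pgam2 was the only one called, of 21 fusion genes Trim72, and of 43 sarcomere genes none. Among the fusion genes Itga7, the laminin-binding integrin subunit with the highest level, had 369 ± 66.1 and 511 ± 120 FPKM (0.46, limma adjusted p = 0.366).

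**Figure D2:**
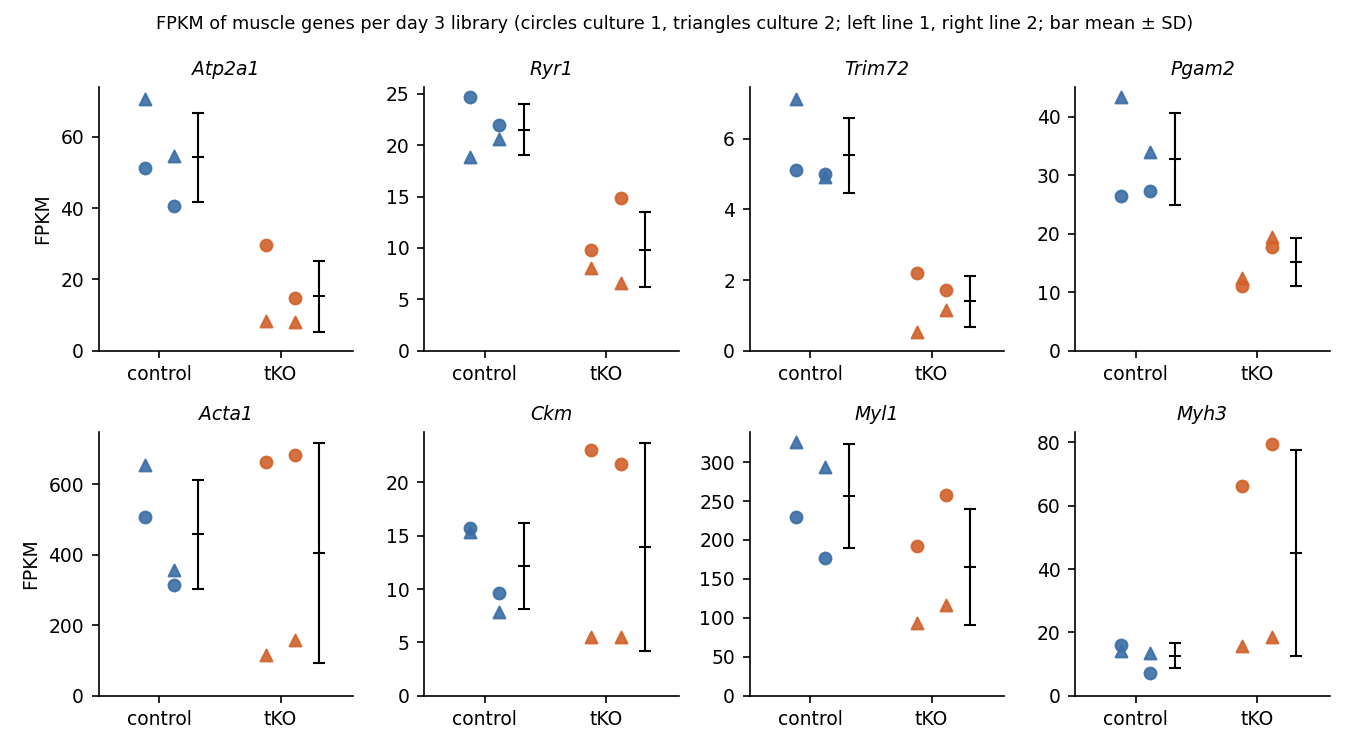
FPKM of 8 muscle genes in each day 3 library, on linear axes from 0. Circles are culture 1 and triangles culture 2, the left column of each group is line or clone 1 and the right is 2, and bars are the mean ± SD of 4 libraries. Atp2a1, Ryr1, Trim72 and Pgam2 have all tKO libraries below all controls, while for Acta1, Ckm and Myh3 the culture 1 tKO libraries lie above the culture 2 ones.

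The test between cultures asked whether the tKO minus control difference depended on the culture number, and culture itself was not tested. The genes with its smallest p-values are given as values, since they were chosen for it and none passed. Acta1 (skeletal alpha-actin) had 506, 653, 315 and 355 FPKM in the control libraries, and 663 and 115 in clone 1 and 682 and 157 in clone 2, cultures 1 and 2. Tnnc1 (slow troponin C) had 23.9 to 47.4 FPKM in controls, 105 and 54.0 in the tKO libraries of culture 1 and 14.8 and 13.8 in those of culture 2. Myl1 and Lmod2 showed the same order, with 193 and 257 FPKM against 93.6 and 117 for Myl1. Over 43 sarcomere genes the median difference was 0.43 in culture 1 (29 positive) and -0.36 in culture 2 (15 positive). The sterol synthesis genes Hmgcs1 and Sqle had differences of the opposite order, -1.59 and -0.40 in culture 1 and 1.23 and 2.08 in culture 2. The controls moved between cultures as well. Hmgcs1 had 106 and 105 FPKM in the control libraries of culture 1 and 44.7 and 61.6 in those of culture 2, against 24.0 and 169 in clone 1 and 49.2 and 92.0 in clone 2. Sqle had 38.4 and 42.7 FPKM in control culture 1 and 12.9 and 19.8 in control culture 2, against 21.3 and 96.1 in clone 1 and 43.0 and 52.8 in clone 2. Of 29 cholesterol and fatty acid synthesis genes, 1 was positive in culture 1 (median -0.67) and 27 in culture 2 (median 0.89). The mean of this list, log2(FPKM + 1), was 6.03 and 5.16 in control line 1, cultures 1 and 2, 6.07 and 5.43 in control line 2, 4.92 and 6.35 in clone 1 and 5.79 and 5.88 in clone 2. These 6 genes were among the 4 with the smallest p-values of that test in each direction (limma interaction, unadjusted p = 0.000144 to 0.00172, adjusted p = 0.685 for each). No gene passed that test after adjustment (0%, with 706 at an unadjusted p under 0.05). With 2 libraries per arm, no dependence of a single gene's genotype difference on culture was thus detectable.

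**Figure D3:**
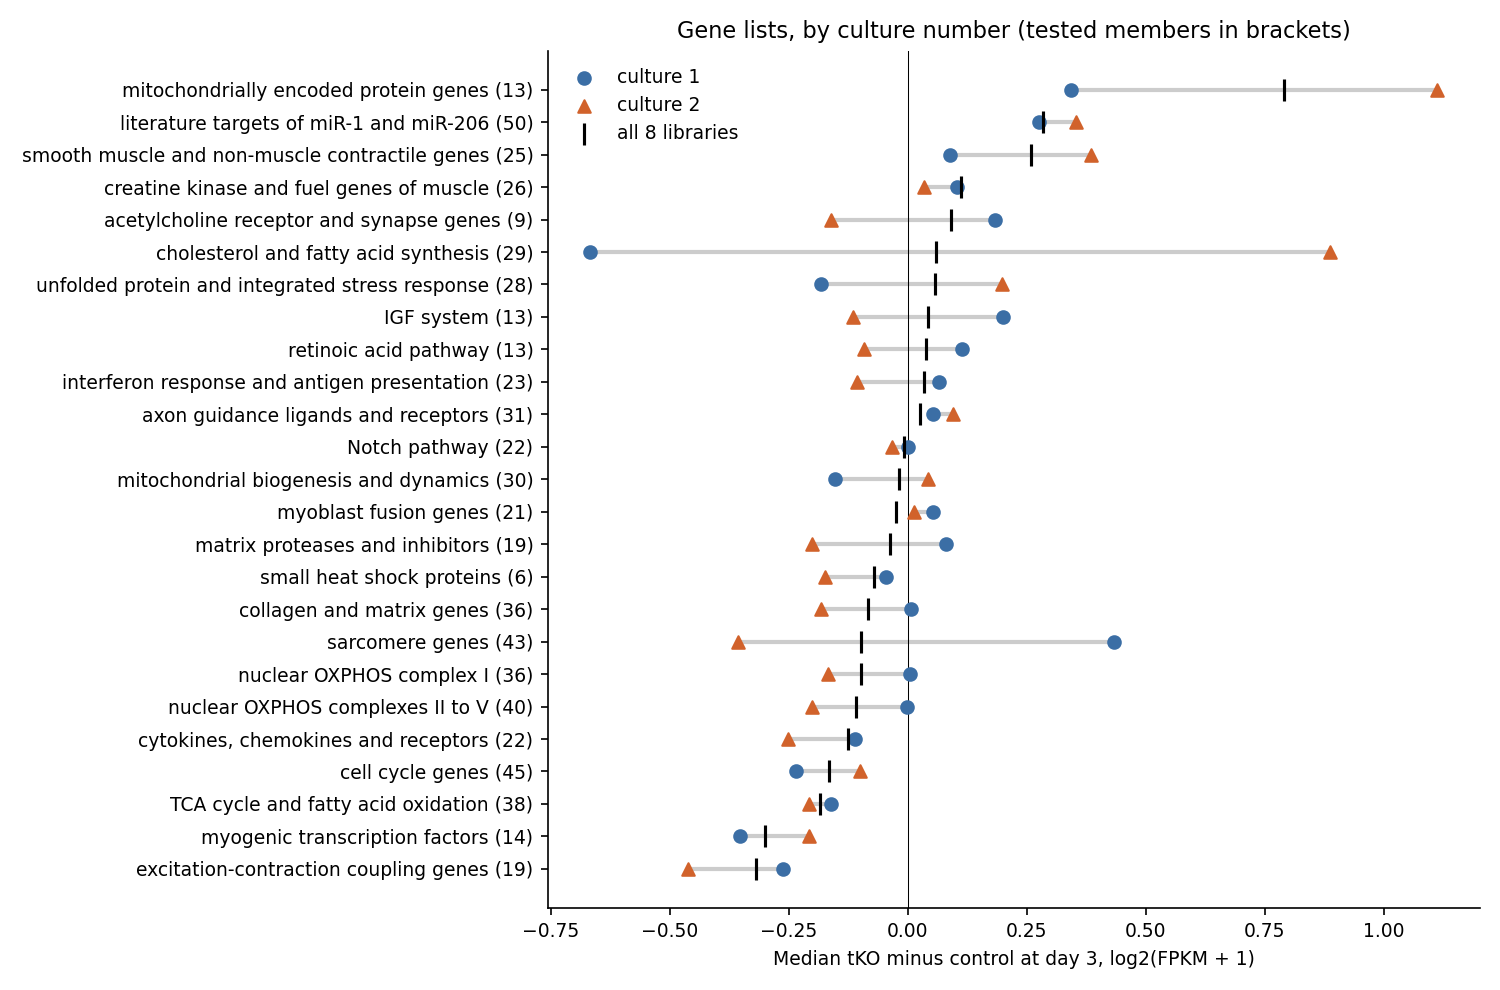
Median tKO minus control difference at day 3, log2(FPKM + 1), over the tested members of each gene list (their number in brackets), in culture 1 (circles), culture 2 (triangles) and all 8 libraries (bars). Cholesterol and fatty acid synthesis genes have medians of -0.67 and 0.89 and sarcomere genes 0.43 and -0.36, while the literature targets have 0.28 and 0.35.

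Regulators of myogenesis did not pass in either direction. None of 14 myogenic transcription factors was called, and 11 differences were negative (median -0.30). Myog (myogenin) had 4.19, 8.65, 2.35 and 8.65 FPKM in controls, 20.4 and 19.3 in clone 1 and 8.23 and 3.89 in clone 2, so the clones lay on either side of the highest control (0.90, limma adjusted p = 0.493). Myod1 had 1.90 ± 0.996 and 2.34 ± 0.879 FPKM (0.24, limma adjusted p = 0.769). Ckm, Tmem8c (myomaker) and Gm7325 (myomixer) gave differences of -0.04, 0.02 and 1.06 (limma adjusted p = 0.982, 0.990 and 0.357); that of Tmem8c is -0.0060 with median-of-ratios scaling. Myh3, the embryonic myosin heavy chain, had 7.14 to 16.1 FPKM in controls, 66.3 and 79.5 in tKO culture 1 and 15.8 and 18.6 in tKO culture 2 (1.47, limma adjusted p = 0.237). The host transcript of miR-206 and miR-133b had 0.0957 to 0.925 FPKM in tKO and 0.293 to 3.40 in control libraries (-0.56, limma adjusted p = 0.547). It does not report the deleted microRNAs, which were not analysed here.

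Mitochondrial genes were addressed by list. Of 36 nuclear genes of complex I and 40 of complexes II to V none was called, with medians of -0.098 and -0.11. The medians were 0.0044 and -0.0023 in culture 1 and -0.17 and -0.20 in culture 2. The mean of the complex I list, log2(FPKM + 1), was 6.487 and 6.145 in clone 1, cultures 1 and 2. It was 6.024 and 5.998 in clone 2 and 6.092 to 6.344 in controls. For complexes II to V it was 7.493 and 7.142 in clone 1, 7.122 and 7.033 in clone 2 and 7.166 to 7.412 in controls. In culture 1 the clones thus lay on either side of all controls, and clone 2 was below them in both cultures. Atp5b, a subunit of ATP synthase, had 1710 ± 181 and 1567 ± 166 FPKM (-0.13, limma adjusted p = 0.768). None of the 13 mitochondrially encoded genes was called (limma adjusted p = 0.338 to 0.967). All 13 differences were positive, with a median of 0.79, 0.34 in culture 1 and 1.11 in culture 2. Of 38 genes of the citrate cycle and fatty acid oxidation, Slc25a20, the carnitine and acylcarnitine carrier, fell from 1.63 ± 0.221 to 0.284 ± 0.230 FPKM (-1.05, limma adjusted p = 0.013). Slc25a20 did not pass without either library of control line 1 (up to 0.0657). None of these 38 rose, and 30 differences were negative (median -0.18, with -0.16 in culture 1 and -0.21 in culture 2). This list's mean, log2(FPKM + 1), was 5.223 to 5.305 in tKO libraries, below all controls (5.405 to 5.473). Without overlap between the genotypes, 6 members were lower and 1 higher, whether called or not. No gene was called among 30 genes of mitochondrial biogenesis and dynamics, 9 acetylcholine receptor and synapse genes, 22 cytokines and receptors, 23 interferon and antigen presentation genes, 28 unfolded protein response genes or 6 small heat shock proteins. Their medians were -0.018, 0.091, -0.13, 0.034, 0.057 and -0.072. B2m, the most abundant of the interferon list, had 333 to 593 FPKM in controls and 266 to 322 in tKO cells (-0.56, limma adjusted p = 0.216).

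Markers of other cells gave 1 call. None was called among 8 myoblast, 4 adipocyte, 3 chondrocyte and osteoblast, 5 smooth muscle and 2 immune markers tested. Dcn was the only one called of 8 fibroblast markers, whose sum was 489 to 662 FPKM in control and 484 to 703 in tKO libraries. The 10 chondrocyte and osteoblast markers summed to 220.7 to 518.7 FPKM in control and 118.8 to 231.4 in tKO libraries, mostly Spp1. Spp1 (osteopontin) had 207 to 500 FPKM in controls and 109 to 204 in tKO cells (-1.02, limma adjusted p = 0.181). Tubb3, the only one of 8 neuronal markers above the filter, had 0.537 to 1.42 FPKM in controls and 2.33 to 7.83 in tKO libraries, without overlap (1.38, limma adjusted p = 0.0607). The largest differences that missed the threshold were in Actc1, Eef1a2, Klk1b27 and Cnr1 (1.90, 1.79, 1.59 and 1.56; limma adjusted p = 0.060 to 0.238) and in Enpp2, Nid2, Il33 and Cox7b2 (-2.81, -2.27, -2.20 and -1.95; limma adjusted p = 0.0971 to 0.425). Nid2 and Cox7b2 split by clone: Nid2 had 53.5 and 60.3 FPKM in clone 1 and 5.28 and 5.45 in clone 2, and Cox7b2 0.115 and 0.192 in clone 1 and 18.2 and 20.3 in clone 2, a level within the control range of 13.2 to 21.3.

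Seed matches were counted more often among the higher than among the lower genes. A 3′ UTR was annotated for 10771 tested genes, 48 of them higher and 60 lower, and the comparison that follows describes these counts without a test. Of the higher genes, 27 held an 8-base or 7-base match to the miR-206 seed (56.3%), against 7 of the lower genes (11.7%) and 19.1% of all 10771. The 8-base match was in 13 higher genes, 1 lower gene (Fndc1) and 483 genes in all (4.48%). The median difference was 0.17 over the 483 genes with the 8-base match, 0.079 over 1570 genes with only a 7-base match and -0.012 over 8718 without, and 72.7%, 63.4% and 48.0% of the differences were positive. In growth medium the same classes had medians of -0.051, -0.048 and -0.014, and 40.2%, 41.1% and 47.3% of the differences were positive. Genes with a match thus leaned slightly lower there. In each tKO library the 8-base median was above the no-match median, and the 7-base median lay between them except in clone 1, culture 1, where it was the lowest (-0.17). Against the control mean, the 8-base and no-match medians were -0.058 and -0.11 in clone 1, culture 1, 0.30 and 0.052 in clone 1, culture 2, 0.15 and -0.024 in clone 2, culture 1, and 0.31 and 0.045 in clone 2, culture 2. Genes with an 8-base match have longer 3′ UTRs (median 2468 bases) than genes without (980.5). By call, the medians were 1035 for the higher, 1156 for the lower and 1189 for the other genes. The part of 3′ UTR length in these differences was not tested.

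**Figure D4:**
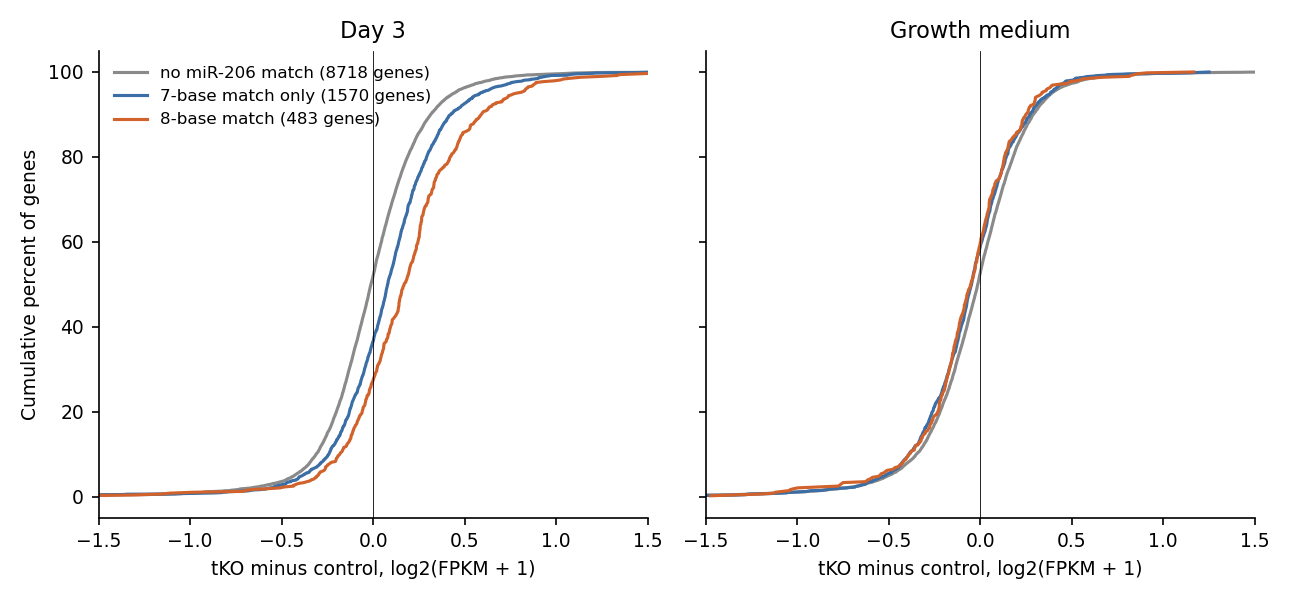
Cumulative percent of genes against the tKO minus control difference, log2(FPKM + 1), at day 3 (left) and in growth medium (right), for genes with an 8-base match to the miR-206 seed, a 7-base match only or neither. At day 3 the curves shift right with match length (medians 0.17, 0.079 and -0.012). In growth medium the medians are slightly lower with a match than without (-0.051, -0.048 and -0.014).

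Sri (sorcin, a calcium-binding partner of Ryr1), with its pair of matches, had 13.1 to 18.9 FPKM in controls and 30.2 to 39.6 in tKO libraries (1.02, limma adjusted p = 0.00638). E2f5 rose from 8.18 ± 0.474 to 17.9 ± 1.48 FPKM (1.04, limma adjusted p = 0.00143). Srsf9, a splicing factor, and Ust, a sulfotransferase of matrix polysaccharides, rose by 0.89 and 0.88 (limma adjusted p = 0.0378 and 0.0209), and Pgrmc1, a heme-binding membrane protein chosen after its values were seen, from 44.4 ± 0.699 to 80.8 ± 5.06 FPKM (0.85, limma adjusted p = 0.00189). Srsf9 and Ust did not pass in the same 5 of 8 fits, without control line 1, culture 1 or 2, control line 2, culture 1, clone 1, culture 2, or clone 2, culture 2 (up to 0.150 and 0.0962). Of 50 tested genes on a list of targets known or proposed for this microRNA family, Tmsb4x, Mmd, Notch3, G6pdx, Tagln2 and Adpgk rose and Ccnd2 fell. Over all tested genes, 0.426% rose and 0.528% fell. Of the 50 differences 38 were positive, and their median was 0.28 (0.28 in culture 1 and 0.35 in culture 2), against 0.0057 over all tested genes. The list was written with earlier results of these data known, so these counts only describe it.

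Matches to the miR-133b seed, searched after the miR-206 result was seen, were also counted. The 8-base match GGACCAAA was in 352 of the 10771 genes (3.27%), and in 10 of the 48 higher (20.8%) and 1 of the 60 lower genes. Of the 10, 7 held no match to miR-206, and 3 of them are shown with the match in capitals (GENCODE M21, GRCm38).
Loxl4, 19:42594997-42595004, minus strand: gcaaatgtcttggaGGACCAAAggacagac
Shisa5, 9:109057554-109057561, plus strand: ccaatgggttatctGGACCAAAggtggggt
Selenof, 3:144597633-144597640, plus strand: aatgttcacttataGGACCAAAatataaat

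Loxl4 had 6.04 to 8.09 FPKM in controls and 16.3 to 21.01 in tKO cells. Shisa5 rose from 29.5 ± 1.61 to 57.9 ± 1.95 FPKM (0.95, limma adjusted p = 0.000845) and Selenof from 210 ± 7.09 to 336 ± 20.9 (0.68, limma adjusted p = 0.0151); both were chosen after their values were seen. Selenof did not pass without any 1 control library (up to 0.0871). The 352 genes had a median difference of 0.13 at day 3 and -0.042 in growth medium, and the 234 of them without a miR-206 match had 0.12. Genes with the 8-base match to let-7a, a microRNA of many tissues, had a median of 0.040 at day 3 (398 genes, 1 higher and 3 lower). Of the 8484 genes with neither a miR-206 match nor an 8-base miR-133b match, 14 were higher and 52 lower.

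In growth medium 209 of the same 11732 genes differed (1.78%; limma), 46 higher (0.392%) and 163 lower (1.39%). Of the 62 genes lower at day 3, 34 (54.8%) were lower in growth medium too, and the median difference there was -0.88 over the 62. Of the 50 higher genes 3 (6%) were higher in growth medium (Aldh1a1, Plag1 and Garnl3), with a median of 0.10 over the 50. Seen from growth medium, 34 of the 163 lower genes (20.9%) and 3 of the 46 higher (6.52%) were called at day 3. Emb, Igfbp2, Kcnj16, Robo1 and Nkain1 differed by -3.24, -2.69, -3.45, -2.43 and -2.40 in growth medium.

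**Figure D5:**
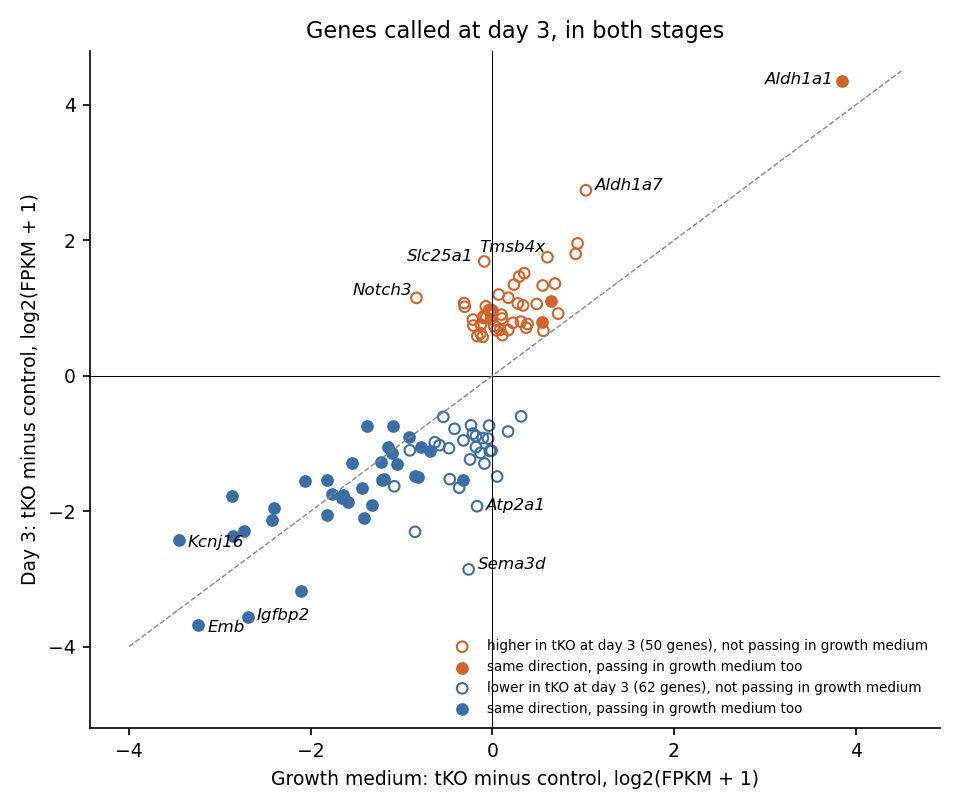
Each of the 112 genes called at day 3, by its tKO minus control difference in growth medium (horizontal) and at day 3 (vertical), both log2(FPKM + 1); filled points also passed in growth medium, and the dashed line marks equal differences. The 50 higher genes gather near 0 on the horizontal axis (median 0.10), while the 62 lower genes spread to the left (median -0.88).

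The difference between stages was itself tested, and 39 genes passed (0.332%, limma interaction, adjusted p under 0.05). Of these, 15 were among the higher and 6 among the lower day 3 calls, each with the larger effect at day 3. Those calls were chosen by their day 3 difference, which the interaction reuses, so the choice itself favours that direction. Slc25a1 had 38.5 FPKM in control and 36.4 in tKO cells in growth medium, against its 3-fold difference at day 3 (interaction 1.78, limma adjusted p = 9.68e-05). Notch3 had 10.96 and 6.32 FPKM in growth medium, so its difference there was negative (-0.84, not passing) and the interaction was 1.99 (limma adjusted p = 0.0249). H6pd, Sri, Ust, Shisa5, Arpc1a and G6pdx were further higher genes that passed (0.75 to 1.38). Sema3d was at 0.231 FPKM in control cells in growth medium and rose to 12.6 ± 3.10 at day 3, reaching 0.945 ± 0.755 in tKO cells (interaction -2.60, limma adjusted p = 0.00104). Trim72, Mylk2, Lama4, Spry1 (a growth factor signalling inhibitor) and Fndc1 were the other lower genes, with interactions of -1.54, -1.01, -0.87, -1.21 and -1.21. Spry1 and Fndc1 were chosen after their values were seen. Atp2a1 and Ryr1, at 0.263 and 0.023 FPKM in control growth medium, did not pass (interaction -1.76 and -1.10, limma adjusted p = 0.108 and 0.064).

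Medians over chromosomes 4, 5 and 19 differed between the clones and lay close together in both stages. In clone 1 the 734 tested genes of chromosome 4 had a median of 0.29 at day 3 and 0.27 in growth medium, and the 731 of chromosome 5 had -0.20 and -0.23. In clone 2 the same chromosomes stood at 0.063 and 0.010, and at 0.043 and 0.0067. Chromosome 19 had 0.080 and 0.067 in clone 1 and -0.11 and -0.14 in clone 2. Chromosome 18 had the largest day 3 median over both clones (0.20), with 0.24 in both stages in clone 1 and 0.14 and 0.075 in clone 2. Chromosome 13 was negative throughout, at -0.16 and -0.15 in clone 1 and -0.076 and -0.12 in clone 2. Some others moved more between stages, such as chromosome 16 in clone 2 (0.17 at day 3, 0.060 in growth medium) and X in clone 2 (0.085 and -0.015). These medians are descriptions of 4 cell lines, and both stages share the lines. Chromosomes 4 and 5 each hold 4 of the higher and 3 of the lower genes, and the part of the chromosome medians in single differences was not tested.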

How the data were processed

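Poly(A) RNA of C2C12 cells was sequenced on an Illumina HiSeq instrument, per the labels' protocols. The authors deposited 1 table of FPKM values for 35275 genes, 1 column per library. STAR, DESeq and build mm10 are named in the submitters' processing notes, and versions, annotation and strand use are not given in the sources used here, so antisense, overlapping and near-identical genes are uncertain. FPKM times gene length gave whole fragment numbers for 100% of values (within 0.02 of a fragment). Of the genes, 97.8% have an identifier in GENCODE M21, and 99.8% of those overlap its gene; coordinates are the table's.

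Genes with a mean of at least 0.5 FPKM over the 8 day 3 libraries were kept. log2(FPKM + 1) was fitted with limma 3.58.1 (R 4.3.3; trend and robust moderation) on those libraries; growth medium was fitted likewise, and the interaction on all 16. Seed matches were counted in the longest 3′ UTR per gene (GENCODE M21). On simulated data for this comparison (11732 genes), 61% of 2-fold and 97% of 4-fold changes were recovered, and 5.39% of calls were false. The simulated libraries were independent, with no shared line or culture effect, and only genes above a minimum of fragments were changed. These shares therefore do not cover differences between lines or cultures, or low genes. No libraries agreed within sampling noise (chi-square per degree of freedom of at least 22.4).

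The lists and named genes were chosen with earlier results of these data known. Named genes are the 15 called genes with the largest difference in each direction; up to 4 called members and the most abundant member of each list, of which a part is given; the 8 largest rises with an 8-base match; the 4 largest differences not called in each direction; the 4 smallest culture interaction p in each direction, leaving out a pseudogene; and 7 myogenic genes. Of the genes so named, 3 are not reported here. Others are marked in the text. Alternatives were other pseudocounts, filters, scalings and fits, and leaving out libraries or lines. Python 3.11.15, numpy 2.4.6 and pandas 2.3.3 were used.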

Additional observations from a re-analysis of the deposited data

Results flagged for a closer look

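In 8 of 184 groups of 4 libraries, 1 library stood apart from the other 3 by Dixon's criterion, and chance alone flags about 1 in 20 groups. These were control line 2, culture 1, for Brinp3 (0.539 FPKM), control line 1, culture 2, for Trim72 (7.12 FPKM) and Gm7325 (0.477 FPKM), and control line 2, culture 2, for the host transcript mmu-mir-133b (3.40 FPKM). Among tKO libraries they were clone 2, culture 2, for Nsg1 (24.8 FPKM), clone 2, culture 1, for B2m (266 FPKM), and clone 1, culture 1, for Gm7325 (5.96 FPKM) and Mylk2 (0.855 FPKM).

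Of the 92 named genes, 14 had a difference between genotypes that itself differed between day 3 and growth medium (limma interaction, adjusted p under 0.05 over all genes). The interaction, day 3 minus growth medium on the log2(FPKM + 1) scale, was 1.78 for Slc25a1, 1.99 for Notch3, 1.38 for G6pdx, 1.10 for Sri, 1.04 for H6pd, 0.97 for Ust, 0.97 for Shisa5 and 0.75 for Arpc1a. It was -2.60 for Sema3d, -1.54 for Trim72, -1.21 for Spry1, -1.21 for Fndc1, -1.01 for Mylk2 and -0.87 for Lama4.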

How the results depend on the processing

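The 112 genes (50 higher, 62 lower) were recounted under other settings, each adjusted by limma over all genes tested. A filter at a mean of 5 FPKM gave 57 (18 lower), no filter 33 higher, all 16 libraries 428 (257 higher, 171 lower), and line averages 36 (9 and 27). With line as a random effect there were 231 (131 and 100). Leaving out control line 1 gave 19 (3 and 16), control line 2 22 (6 and 16), clone 1 230 (128 and 102) and clone 2 445 (213 and 232). A minimum absolute difference of 1 left 68. Leaving out each library in turn gave 51 to 241 genes (21 to 150 higher, 30 to 91 lower). Chosen after seeing the data, culture 1 alone gave 2 (1 and 1), culture 2 alone 175 (79 and 96) and library weights 568 (371 and 197). The cause of these changes was not tested, beyond fewer libraries or genes where a setting removes them.

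The culture number as a replicate block gave 254 genes (144 higher, 110 lower), and 185 (97 higher) with line as a random effect too. The numbers were not taken as a pairing: same-numbered control and tKO libraries deviated together with r over 0.1 in 5 of 8 pairs (mean 0.186, -0.223 to 0.558), not in every pair, against 1 of 8 differently numbered pairs (mean -0.187). The test of whether the genotype difference depends on culture gave 1 gene with all 16 libraries.

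All 64 called genes that are named kept their direction in every setting that tested them. Their groups do not overlap, so leaving out libraries, lines or a culture could not have changed the direction. In the planned recounts they kept the call 1139 times and lost it 311 times. The median of genes with an 8-base match ran from 0.071 (culture 1 alone) to 0.268 (library weights). Reversals occurred only in genes without a call. With culture 1 alone they were Acta1 0.75, Sqle -0.40, Lmod2 1.09, Tnnc1 1.27, Myl1 0.15 and Ckm 0.81, and with culture 2 alone Hmgcs1 1.23, Myod1 -0.26 and Tmem8c -0.32. Without control line 1 they were Lmod2 0.082, Tnnc1 0.17 and Ckm 0.34, without control line 2 Tmem8c -0.058, without clone 1 Cox7b2 0.11, Lmod2 0.066 and Myod1 -0.075, and without clone 2 Tnnc1 0.16 and Tmem8c -0.21. Tmem8c was -0.0060 with median-of-ratios scaling and -0.20 with library weights. Leaving out each library in turn gave -0.63 to 0.29 for Hmgcs1, -0.27 to 0.29 for Lmod2, -0.64 to 0.30 for Tnnc1, -0.36 to 0.27 for Ckm and -0.23 to 0.33 for Tmem8c.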
